A study of Mus musculus with 12 samples.

Results

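The ErbB receptors and their EGF-like ligands are described here as 10 genes of bulk mouse oral tumours. They were found by symbol among the 55401 genes of the deposited FPKM table (fragments scaled to transcript length and to the fragments of the library), and each symbol matched 1 gene. The members are 3 receptors (Egfr, Erbb2 and Erbb3) and 7 ligands (Areg, Ereg, Hbegf, Tgfa, Btc, Epgn and Nrg1). Of these 10, 8 passed the filter of at least 1 FPKM in at least 3 libraries. Btc and Epgn did not pass it.

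ErbB receptors are membrane tyrosine kinases that pair with one another once a ligand is bound. Egfr binds Areg, Tgfa, Epgn, Ereg, Btc and Hbegf, while Erbb3 binds neuregulins such as Nrg1, and Erbb2, which has no known ligand of its own, is the favoured partner of the others. Most ligands are made as membrane precursors and are cut free by the metalloproteases Adam10 and Adam17, and the receptors signal to growth through the MAP kinase and PI3 kinase branches, which squamous epithelium and its tumours are known to depend on.

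The study asked what a fusion protein of interleukin-10 with an antibody against the macrophage receptor CSF1R does to tumours, compared with each component. Mouse MTC-Q1 oral cancer cells were injected orthotopically into C57BL/6 mice, which were bought at 6 to 8 weeks of age, and treatment began at a tumour size of 100 mm3. RNA was sequenced from 12 tumours, 3 per group, given control isotype IgG1-Fc (Ctrl-IgG), CSF1R antibody (aCSF1R), recombinant IL10-Fc protein (IL-10-Fc) or the fusion protein (BF10). The labels give the same transplanted line for all groups, which was a luciferase-expressing subline in the study's methods. The number of doses is 6 in the sample labels and 4 in the series design. Age at collection and sex are not given for single samples. Nothing in the labels says that replicates came from separate animals, so p-values measure only the spread between these samples, which may be technical.

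The libraries fell into 2 sides that follow the treatments. Xist, the RNA that coats the silenced X of females, did not exceed 0.04 FPKM under Ctrl-IgG or aCSF1R (6 libraries) and ran from 17.09 to 30.68 FPKM under IL-10-Fc or BF10 (6 libraries). The Y-linked gene Eif2s3y was between 4.23 and 11.33 FPKM on the first side. It was 0 in IL-10-Fc and 0.05, 0.00 and 3.29 FPKM in the 3 BF10 libraries. H2-Ea, an MHC class II gene that C57BL/6 mice are known not to transcribe, did not exceed 0.27 FPKM on the first side and was between 552.78 and 1726.81 FPKM on the second. Treatment and these differences between the tumours cannot be told apart in BF10 against Ctrl-IgG, IL-10-Fc against Ctrl-IgG and BF10 against aCSF1R, whereas aCSF1R against Ctrl-IgG and BF10 against IL-10-Fc each lie within 1 side. The H2-Ea values of the second side depart from what is known of C57BL/6, the strain named for the mice. Which of the tumour cells, the strain and the sex of the mice differed between the sides cannot be told from these data.

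Markers of some cell types differed between the sides as well. Of 8 markers of simple epithelium, 7 passed the filter, and their summed FPKM was 1.08 to 12.6 in Ctrl-IgG, 1.83 to 9.23 in aCSF1R, 528 to 1320 in IL-10-Fc and 896 to 1384 in BF10. Krt8 and Krt18, which define that epithelium, stayed at or below 0.28 and 0.09 FPKM on the first side. The summed keratinocyte markers (10 of 11 passed the filter) were high in 3 libraries only, at 1931 in Ctrl-IgG replicate 3, 801 in aCSF1R replicate 1 and 1610 in aCSF1R replicate 2. In the other Ctrl-IgG and aCSF1R libraries they summed to 7.03, 8.09 and 8.44, with Krt5 at 0.04 FPKM or less, so the label oral cancer stands there on tissue with little keratin RNA of either kind. Between the sides, the summed markers of skeletal muscle, mast cells, Schwann cells, endothelium and salivary gland overlapped. Markers of some other cell types stood apart without overlap. From the first side to the second, their summed FPKM went from 163 to 607 against 1014 to 2308 for fibroblasts, from 29.8 to 336 against 493 to 4494 for neutrophils, from 236 to 757 against 786 to 1241 for macrophages and from 0.25 to 1.43 against 1.76 to 54.5 for adipocytes. In bulk tissue, fewer cells of a type and less RNA per cell cannot be told apart. The part of the cell mixture in the results below was not tested.

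In 4 libraries (replicate 1 of BF10, replicates 1 and 2 of IL-10-Fc, replicate 2 of Ctrl-IgG) mitochondrial genes took 6.57% to 9.04% of the FPKM sum, against 2.99% to 3.61% in each of the other 8. The depth, read from the steps of low FPKM values, spanned 0.94 to 1.41 times that of the first Ctrl-IgG library. For the results that these 4 libraries changed most, values without them are given below.

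The ligands Areg and Tgfa are on different chromosomes and were both high in IL-10-Fc and BF10, so the 250 bases before their RefSeq start sites (GRCm38.p6, plus strand for both) are shown. The Areg window is chr5:91139349-91139598 and the Tgfa window chr6:86194972-86195221. Capitals mark the cAMP response element TGACGTCA, the GC box GGGCGG (or its complement CCGCCC) and the TATA box TATAAA.
Areg: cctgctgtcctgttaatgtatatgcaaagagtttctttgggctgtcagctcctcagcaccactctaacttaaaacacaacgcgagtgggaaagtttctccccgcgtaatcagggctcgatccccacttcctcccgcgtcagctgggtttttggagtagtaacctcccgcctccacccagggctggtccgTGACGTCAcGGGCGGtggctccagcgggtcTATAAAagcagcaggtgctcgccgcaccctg
Tgfa: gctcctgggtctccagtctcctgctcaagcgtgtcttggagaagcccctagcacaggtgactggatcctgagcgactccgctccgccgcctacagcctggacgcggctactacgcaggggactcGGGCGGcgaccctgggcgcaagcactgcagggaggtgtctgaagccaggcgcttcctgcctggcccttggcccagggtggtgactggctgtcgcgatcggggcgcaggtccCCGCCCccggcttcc
Areg held 1 cAMP response element at position -61 from the start, 1 GC box at -52 and 1 TATA box at -31. Tgfa held 2 GC boxes, at -126 and -15, and neither of the other motifs. Neither window held an AP-1 site (TGANTCA), a STAT site (TTCNNNGAA) or CCAAT, searched on both strands. Among 32851 windows of the same length, 1.55% held the cAMP response element, 32.7% the GC box, 12.4% the TATA box, 6.75% the AP-1 site, 7.02% the STAT site and 33.9% CCAAT. The table of start sites matched 6 of the 10 members, adding Egfr, Erbb2, Btc and Epgn, and did not match Erbb3, Ereg, Hbegf and Nrg1. A match describes these letters and not the binding of a factor.

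**Figure D1:**
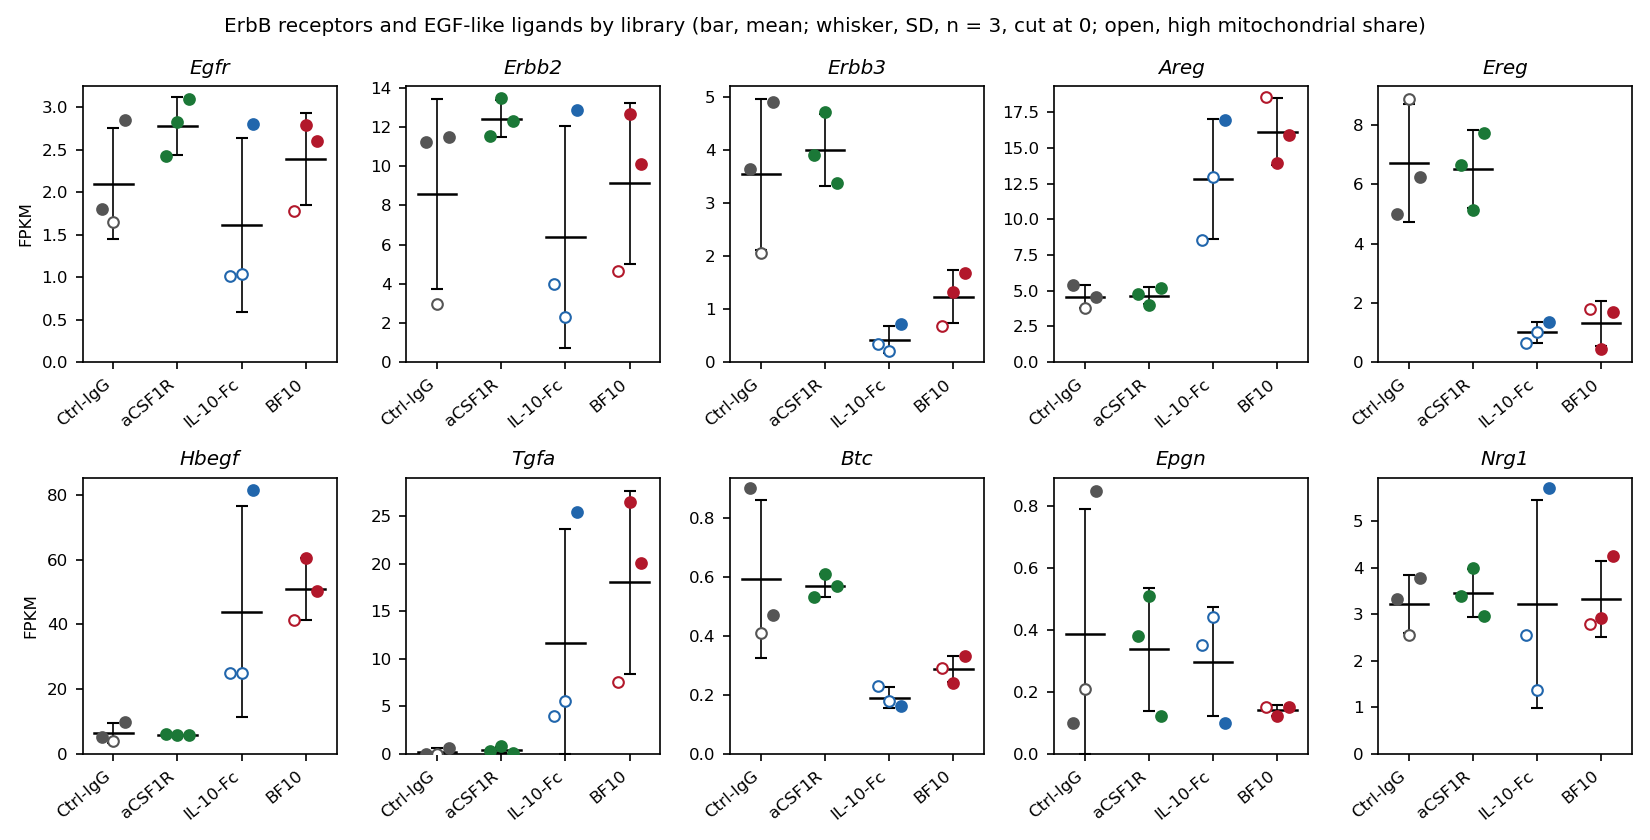
FPKM of the 10 members in each of the 12 libraries, by treatment group (horizontal bar, mean; whisker, SD, n = 3; open points, the 4 libraries of high mitochondrial share). Hbegf, Tgfa and Areg are higher and Ereg and Erbb3 lower in every IL-10-Fc and BF10 library than in any Ctrl-IgG or aCSF1R library, and Erbb2 is at 4.63 FPKM or less in the open points.

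Among the receptors, Erbb3 fell in the tumours given IL-10-Fc or BF10, while no call was made for Egfr and Erbb2 in any comparison. Erbb3 (ENSMUSG00000018166, GRCm38 chromosome 10, 128567523 to 128589652), the neuregulin receptor whose own kinase is nearly inactive, was at 3.65, 2.06 and 4.91 FPKM in Ctrl-IgG and 3.91, 4.72 and 3.38 in aCSF1R. It was at 0.35, 0.21 and 0.71 FPKM under IL-10-Fc and 0.69, 1.33 and 1.68 under BF10. Each value of the latter groups lay below each value of the former, and replicate 2 of Ctrl-IgG was the lowest on its side. By limma on log2(FPKM + 1), Erbb3 fell by 1.64 in IL-10-Fc (SE 0.28, adjusted p = 0.00146) and by 1.00 in BF10 (SE 0.28, adjusted p = 0.0246) relative to Ctrl-IgG, and by 1.18 in BF10 relative to aCSF1R (SE 0.28, adjusted p = 0.0110). The fall in BF10 against Ctrl-IgG was not robust to single libraries. It lost its call without Ctrl-IgG replicate 1 (log2 fold change -0.96, adjusted p = 0.0771) or replicate 3 (-0.78, 0.0849), and without BF10 replicate 1 (-0.81, 0.0771) or replicate 2 (-1.04, 0.0610).

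Egfr (ENSMUSG00000020122, chromosome 11, 16752203 to 16918158), the receptor of most of the ligands here, was measured at 1.80, 1.65 and 2.85 FPKM in Ctrl-IgG and 2.42, 2.82 and 3.10 in aCSF1R. In IL-10-Fc it was at 1.01, 1.04 and 2.80 FPKM and in BF10 at 1.78, 2.79 and 2.60. All groups overlapped those of the other side, and the log2 fold change against Ctrl-IgG was 0.14 in BF10 (95% interval -0.48 to 0.76) and -0.29 in IL-10-Fc (-0.91 to 0.33). The latter was 0.21 without the 4 libraries of high mitochondrial share, which leaves IL-10-Fc without replicates.

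Erbb2 (ENSMUSG00000062312, chromosome 11, 98412470 to 98437716), the partner receptor, had the highest level per length of the 10 members in Ctrl-IgG and aCSF1R. Its FPKM was 11.23, 2.99 and 11.49 in Ctrl-IgG, 11.53, 13.45 and 12.30 in aCSF1R, 4.01, 2.32 and 12.84 under IL-10-Fc and 4.63, 12.67 and 10.10 under BF10. The low values were those of the 4 libraries with a high mitochondrial share (2.32 to 4.63 FPKM), and the other 8 libraries, from all groups, lay between 10.10 and 13.45 without overlap. Treatment groups differed in Erbb2 by less than this spread, with log2 fold changes against Ctrl-IgG of 0.16 in BF10 (95% interval -1.11 to 1.43), -0.47 in IL-10-Fc (-1.74 to 0.80) and 0.66 in aCSF1R (-0.61 to 1.93). Without the 4 low libraries Erbb2 was at 0.00 in BF10, with no call, and at 0.16 in IL-10-Fc, which is then left without replicates. The 3 aCSF1R values lay above the 3 Ctrl-IgG values, as did the groups of 14.9% of all tested genes in that comparison in one direction or the other.

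The mitochondrial share went with the level of most members. Among the 6 libraries of IL-10-Fc or BF10, the mean log2(FPKM + 1) of the 3 with a high share minus that of the 3 others was -1.50 for Erbb2, -1.93 for Tgfa and -1.06 for Hbegf. The same difference was -0.73 for Egfr, -0.70 for Nrg1 and -0.65 for Erbb3, and it was -0.26 for Areg and 0.00 for Ereg. Over all tested genes its median was -0.51, and by annotated exon length it went from 0.00 in 2141 genes under 1000 bases to -0.75 in 5032 genes of at least 4000 and under 8000 bases. Areg, with 1215 exonic bases, is the shortest of the 8 tested members, and the others have between 4128 and 11326. The cause of this difference was not tested.

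**Figure D2:**
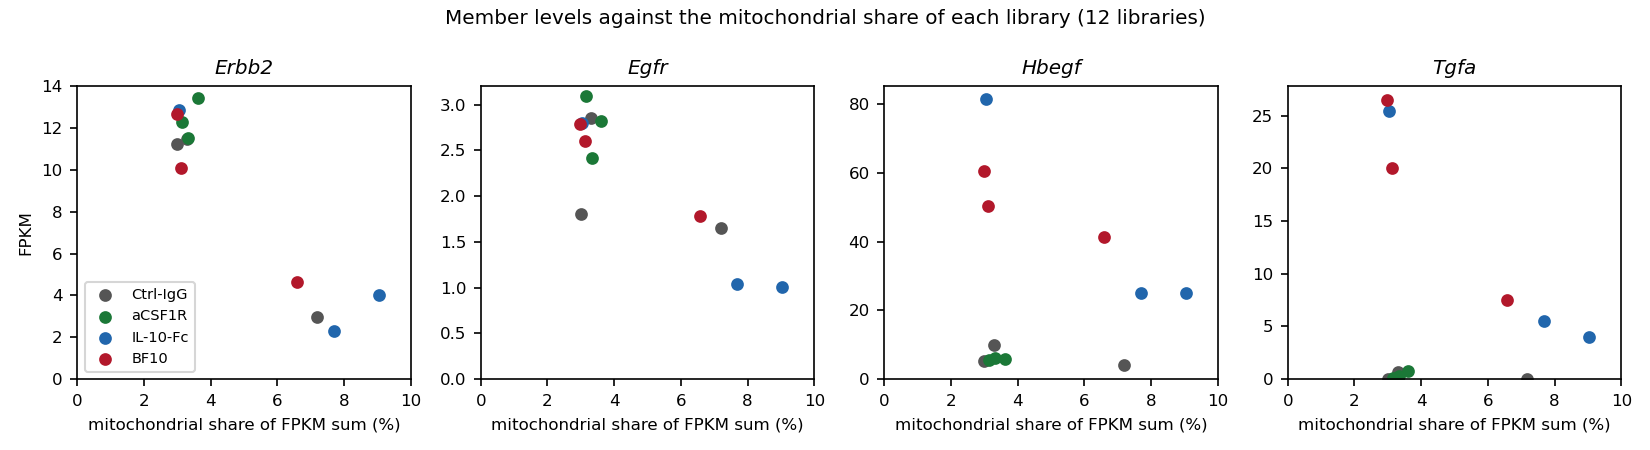
FPKM of Erbb2, Egfr, Hbegf and Tgfa against the percent of each library's FPKM sum held by mitochondrial genes, with 1 point per library coloured by treatment. Erbb2 lies at 4.63 FPKM or less in the 4 libraries above 5% and at 10.10 FPKM or more in the other 8, whereas Hbegf in IL-10-Fc and BF10 stays above all Ctrl-IgG and aCSF1R points at either share.

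Of the ligands, 3 rose in the tumours given IL-10-Fc or BF10. Hbegf, heparin-binding EGF-like growth factor (chromosome 18, 36504927 to 36515805), was at 5.22, 4.02 and 9.91 FPKM in Ctrl-IgG and 6.01, 5.82 and 5.61 in aCSF1R. In IL-10-Fc it reached 25.04, 24.96 and 81.44 FPKM and in BF10 41.40, 60.59 and 50.36. Every value of the last 2 groups exceeded every value of the first 2, and IL-10-Fc replicate 3 stood far above the other IL-10-Fc libraries. The mean was 50.8 ± 9.60 FPKM in BF10 against 6.38 ± 3.11 in Ctrl-IgG (SD, n = 3 each), a ratio of 7.96. On the log2(FPKM + 1) scale Hbegf rose by 2.87 in BF10 (SE 0.43, adjusted p = 0.000883) and 2.45 in IL-10-Fc (SE 0.43, adjusted p = 0.00169) against Ctrl-IgG, and by 2.91 in BF10 against aCSF1R (SE 0.43, adjusted p = 0.000831).

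Tgfa, transforming growth factor alpha (chromosome 6, 86195223 to 86275719), was near 0 on the first side. It was listed at 0.01, 0.00 and 0.63 FPKM in Ctrl-IgG and 0.25, 0.79 and 0.11 in aCSF1R, and at 3.99, 5.49 and 25.41 under IL-10-Fc and 7.54, 26.50 and 20.05 under BF10. The lowest IL-10-Fc library was thus above the highest library of the other side, and within each of IL-10-Fc and BF10 the libraries of high mitochondrial share were the low ones. The rise by limma was 3.85 in BF10 (SE 0.60, adjusted p = 0.00110) and 3.01 in IL-10-Fc (SE 0.60, adjusted p = 0.00336) against Ctrl-IgG, and 3.65 in BF10 against aCSF1R (SE 0.60, adjusted p = 0.00148). These sizes depend on the pseudocount because the control values are near 0, and with 0.1 in place of 1 they were 6.32, 5.38 and 5.31. The 3 higher values on the first side (0.63, 0.25 and 0.79 FPKM) were those of the 3 libraries rich in keratinocyte markers, in which 8 skeletal muscle markers also summed to 641 to 1057 FPKM against 33.3 to 91.4 in the other 3. The part of that tissue was not tested.

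Areg, amphiregulin (chromosome 5, 91139599 to 91148432), was at 5.38, 3.79 and 4.56 FPKM in Ctrl-IgG and 4.80, 4.03 and 5.16 in aCSF1R. Its values were 8.58, 12.98 and 16.93 FPKM under IL-10-Fc and 18.59, 13.95 and 15.87 under BF10, again without overlap between the sides. BF10 replicate 1, a library of high mitochondrial share, here held the highest value. Areg rose by 1.62 in BF10 (SE 0.26, adjusted p = 0.00121) and 1.27 in IL-10-Fc (SE 0.26, adjusted p = 0.00354) against Ctrl-IgG, and by 1.59 in BF10 against aCSF1R (SE 0.26, adjusted p = 0.00132), all on the log2(FPKM + 1) scale.

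Ereg, epiregulin (chromosome 5, 91074622 to 91093646), fell where its neighbour Areg rose. The 2 genes are 45.95 kb apart in a ligand cluster that runs from Epgn through Ereg and Areg to Btc, with gaps of 39.41 kb before Ereg and 208.83 kb after Areg. Ereg was at 5.01, 8.89 and 6.26 FPKM in Ctrl-IgG and 6.66, 5.13 and 7.73 in aCSF1R, but at 0.65, 1.00 and 1.37 under IL-10-Fc and 1.80, 0.44 and 1.70 under BF10. The highest value on the second side was 1.80 FPKM and the lowest on the first 5.01. The fall was 1.77 in BF10 (SE 0.31, adjusted p = 0.00207) and 1.93 in IL-10-Fc (SE 0.31, adjusted p = 0.000955) against Ctrl-IgG, and 1.74 in BF10 against aCSF1R (SE 0.31, adjusted p = 0.00219), each below 0 on the log2(FPKM + 1) scale.

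Nrg1, neuregulin 1, the ligand of Erbb3 (chromosome 8, 31814551 to 32884029), was at 3.32, 2.55 and 3.78 FPKM in Ctrl-IgG and 3.40, 3.99 and 2.97 in aCSF1R. Its values in IL-10-Fc were 2.56, 1.38 and 5.71 FPKM, the widest range of any group, and in BF10 2.79, 2.93 and 4.26. All groups overlapped, with a log2 fold change against Ctrl-IgG of 0.03 in BF10 (95% interval -0.72 to 0.78) and -0.12 in IL-10-Fc (-0.87 to 0.63). Without the 4 libraries of high mitochondrial share, which leaves IL-10-Fc without replicates, the latter was 0.56.

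The 2 members under the filter were low throughout. Btc, betacellulin, was at 0.90, 0.41 and 0.47 FPKM in Ctrl-IgG, 0.53, 0.61 and 0.57 in aCSF1R, 0.23, 0.18 and 0.16 under IL-10-Fc and 0.29, 0.24 and 0.33 under BF10, so its sides did not overlap. Fitted among all genes above 0 in a library, it was not called in any comparison, and in IL-10-Fc against Ctrl-IgG its difference of -0.41 (adjusted p = 0.0375) was under the size set for a call on the log2(FPKM + 1) scale, which compresses values under 1 FPKM. The mean FPKM of Btc was 0.190 in IL-10-Fc and 0.593 in Ctrl-IgG, a ratio of 0.320. Epgn, epigen, was at 0.10, 0.21 and 0.85 FPKM in Ctrl-IgG, 0.38, 0.51 and 0.12 in aCSF1R, 0.35, 0.44 and 0.10 under IL-10-Fc and 0.15, 0.12 and 0.15 under BF10, and its groups overlapped between the sides. As with Tgfa, the 3 keratinocyte-rich libraries held the highest Epgn values of their side.

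The threshold for a call was an adjusted p of 0.05 together with a difference of at least 1.5-fold. In BF10 against Ctrl-IgG 5 of the 8 tested members were called, 3 higher and 2 lower, where 24.9% of all 15813 tested genes were called (11.8% higher, 13.2% lower). In IL-10-Fc against Ctrl-IgG the same count of 5 stood beside 33.7% of all genes (10.1% higher, 23.6% lower), and in BF10 against aCSF1R beside 25% (11% higher, 14% lower). The split of all genes in IL-10-Fc against Ctrl-IgG, 1597 higher and 3729 lower, depended on scaling and became 2534 and 2679 once size factors from the median of ratios were applied, or 2461 and 2917 after quantile normalization, while the 5 members were called the same way under both. In each of these comparisons the called members were Hbegf, Tgfa, Areg, Ereg and Erbb3. They were also the members whose groups did not overlap, 5 of 8, while the groups of 38.4%, 37.3% and 55.7% of all genes did not overlap in the same order. Since BF10 and IL-10-Fc were set against the same control libraries, these counts are not independent of one another. The median log2 fold change of all tested genes was -0.12, -0.39 and -0.21, small beside the changes of the called members.

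Without the 4 libraries of high mitochondrial share the same 5 members were called in each of the 3 comparisons, where 40.4%, 39.7% and 40.6% of all genes were called. Hbegf then rose by 2.77 in BF10 and 3.32 in IL-10-Fc against Ctrl-IgG and Tgfa by 4.23 and 4.36, with the single remaining IL-10-Fc library assumed to vary like the other groups. Erbb3 fell by 1.07 in BF10 and 1.62 in IL-10-Fc in that fit.

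**Figure D3:**
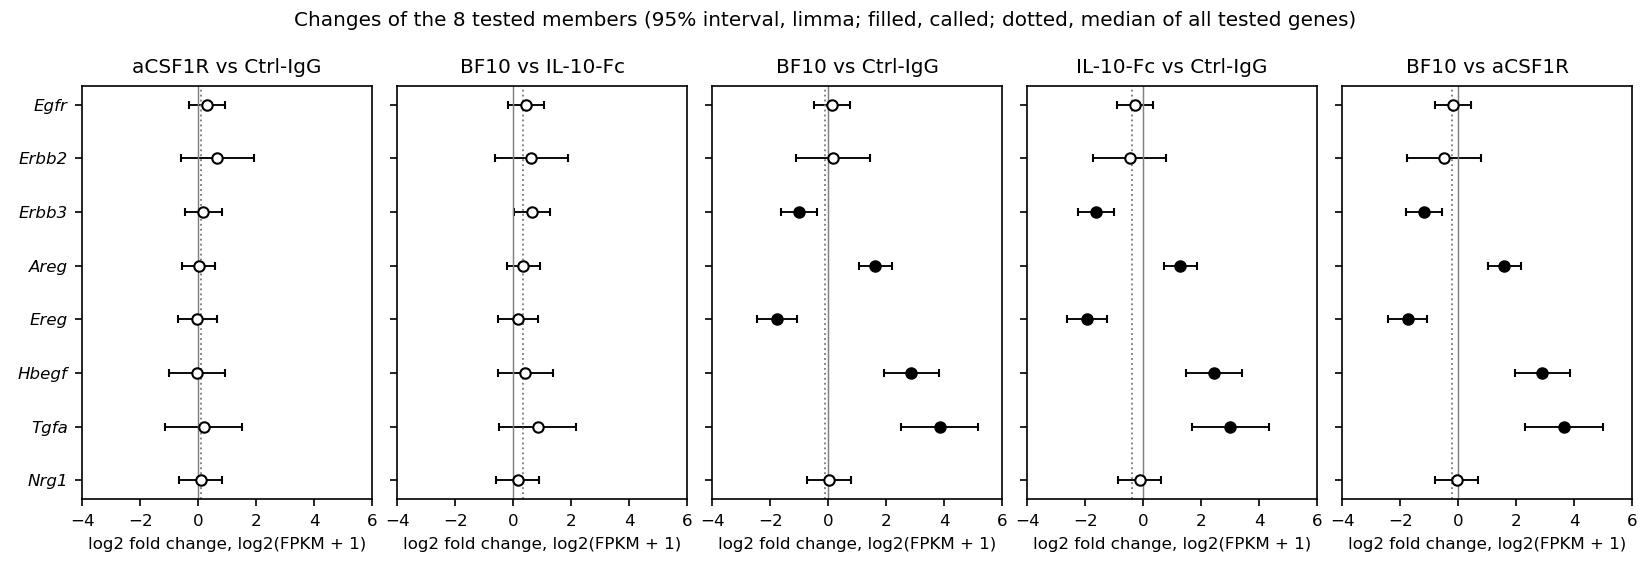
Differences in mean log2(FPKM + 1) for the 8 tested members in 5 comparisons (point, log2 fold change; line, 95% interval from limma; filled, past the threshold for a call; dotted line, median of all tested genes). Hbegf, Tgfa and Areg lie to the right and Ereg and Erbb3 to the left in the 3 comparisons that cross the sides, and no point is filled in aCSF1R against Ctrl-IgG or BF10 against IL-10-Fc.

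Within the sides no member was called by limma. In aCSF1R against Ctrl-IgG the count was 0 of 8, with 0 members at an unadjusted p under 0.05, where 0% of all genes were called. The largest estimate there was 0.66 for Erbb2, and the intervals reached from -0.99 to 0.92 for Hbegf, from -0.54 to 0.60 for Areg and from -1.13 to 1.53 for Tgfa. In BF10 against IL-10-Fc the count was again 0 of 8, where 0.0126% of all genes were called, and 1 member had an unadjusted p under 0.05. That member was Erbb3, with a log2 fold change of 0.64 (95% interval 0.02 to 1.26, adjusted p = 0.478). The 8 estimates lay between 0.15 for Nrg1 and 0.84 for Tgfa, and the median of all tested genes was 0.34. Without the 4 libraries of high mitochondrial share, which leaves 1 IL-10-Fc library, 7 of the 8 were below 0, from -0.56 for Nrg1 to -0.04 for Egfr, Erbb3 was at 0.55, and none was called. The groups of no member (0 of 8) were separate in BF10 against IL-10-Fc, where those of 5.18% of all genes were. IL-10-Fc holds 2 libraries of high mitochondrial share and BF10 holds 1.

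Whether BF10 differed from its 2 components added together on the log2 scale (its change from Ctrl-IgG less the changes of IL-10-Fc and aCSF1R) was asked with 1 further contrast, which was not called for any member, where 0.00632% of all genes were called by limma and 0 members had an unadjusted p under 0.05. Its 95% interval reached from -0.90 to 1.81 for Hbegf, from -1.24 to 2.53 for Tgfa, from -0.48 to 1.12 for Areg and from -0.78 to 1.15 for Ereg, so with 3 libraries a group the fit leaves room for departures within those limits.

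The order of levels per length therefore differed between the sides. In both Ctrl-IgG and aCSF1R, by mean FPKM, Erbb2 led, followed by Ereg, Hbegf, Areg, Erbb3, Nrg1 and Egfr, with Btc, Epgn and Tgfa below 1 FPKM. Neighbours in that order overlapped in range in Ctrl-IgG except Egfr and Btc, and in aCSF1R also Erbb2 and Ereg, and Hbegf and Areg, were separate. In BF10 the order was Hbegf, Tgfa, Areg, Erbb2, Nrg1, Egfr, Ereg, Erbb3, Btc and Epgn. Hbegf was separate there from Tgfa, Areg from Erbb2, Erbb2 from Nrg1, Erbb3 from Btc and Btc from Epgn. IL-10-Fc had Areg ahead of Tgfa and Epgn ahead of Btc, and only Hbegf was separate from its neighbour. Mean Ereg, the highest ligand in Ctrl-IgG at 6.72 ± 1.98 FPKM (SD, n = 3), was 1.31 ± 0.758 in BF10.

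Of 42 other genes of the pathway, chosen by role, 40 passed the filter. In BF10 against Ctrl-IgG 9 rose and 2 fell, in IL-10-Fc against Ctrl-IgG 7 rose and 5 fell, and in BF10 against aCSF1R 11 rose and 3 fell. Of all tested genes 24.9%, 33.7% and 25% were called in these 3 comparisons, in the same order. The 40 genes had median log2 fold changes of 0.22 and -0.14 in the first 2 comparisons, where those of all tested genes were -0.12 and -0.39. No gene of the 40 was called by limma in aCSF1R against Ctrl-IgG or in BF10 against IL-10-Fc.

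Among the remaining receptors and ligands, Erbb4, the fourth receptor of the family, was listed at 0 in 10 libraries and at 0.01 and 0.02 FPKM in the other 2, and Nrg3, a neuregulin, was listed at 0 in all 12. Egf, the ligand that names the family, was at 0.80 to 1.05 FPKM in Ctrl-IgG, 0.83 to 1.78 in aCSF1R, 0.04 to 0.38 in IL-10-Fc and 0.23 to 0.54 in BF10. It fell by 0.70 in IL-10-Fc against Ctrl-IgG (adjusted p = 0.0261) and by 0.76 in BF10 against aCSF1R (adjusted p = 0.0223) and was not called in BF10 against Ctrl-IgG. Neither call was robust, with the first lost in 8 of 21 alternatives and the second in 5. Quantile normalization, only the groups compared and the FPKM sum as covariate were among the 8, and a pseudocount of 0.1 among the 5. Single libraries mattered as well. The first was lost without replicate 1 or 3 of Ctrl-IgG (-0.72 and -0.64, adjusted p = 0.0622 and 0.0765) or replicate 1 or 2 of IL-10-Fc (-0.61 and -0.66, adjusted p = 0.0964 and 0.0800). The second was lost without replicate 1 or 2 of aCSF1R (-0.66 and -0.66, adjusted p = 0.0967 and 0.0914) or replicate 1 or 2 of BF10 (-0.65 and -0.81, adjusted p = 0.0733 and 0.0508).

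The proteases that free the ligands gave 1 call of 5 in BF10 against Ctrl-IgG, where 24.9% of all tested genes were called. Adam10 was at 26.06, 23.87 and 25.16 FPKM in Ctrl-IgG and 35.95, 55.01 and 47.67 in BF10, and rose by 0.84 (adjusted p = 0.0150). That call was lost in 3 of 22 alternatives, which were values rescaled to TPM, only the groups compared, and omission of BF10 replicate 2 (0.71, adjusted p = 0.0724). Adam17, which releases Tgfa, Areg and Hbegf, was at 29.26, 21.62 and 28.08 FPKM in Ctrl-IgG and 8.71, 23.73 and 24.58 in BF10, with a log2 fold change of -0.57 (adjusted p = 0.424). In IL-10-Fc, at 6.41, 7.24 and 22.41 FPKM, its log2 fold change was -1.27 (adjusted p = 0.0539). The low Adam17 values on that side were those of libraries with a high mitochondrial share.

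Inhibitors of the receptors and of their signal moved both ways, with 4 higher and 2 lower of 12 in each of BF10 and IL-10-Fc against Ctrl-IgG. The shares called among all tested genes were 24.9% and 33.7%. Errfi1, which binds and silences the Egfr kinase, was at 14.90, 9.33 and 13.87 FPKM in Ctrl-IgG, 15.82, 12.96 and 31.92 in aCSF1R, 56.98, 61.60 and 112.44 under IL-10-Fc and 90.25, 95.96 and 81.20 under BF10. Its sides were apart, and it rose by 2.74 in BF10 (SE 0.35, adjusted p = 0.000351) and by 2.47 in IL-10-Fc (SE 0.35, adjusted p = 0.000478) against Ctrl-IgG. Spry1, a Sprouty inhibitor of the MAP kinase branch, was at 1.64, 0.56 and 4.39 FPKM in Ctrl-IgG and 15.10, 28.36 and 30.87 in BF10 and rose by 3.14. Socs5, a suppressor that promotes loss of Egfr, rose by 1.40 and Spred1, another inhibitor of the MAP kinase branch, by 0.87, while Lrig3 fell by 1.16 and Socs4 by 0.86 in BF10 against Ctrl-IgG. The call of Spred1 there was lost in 4 of 22 alternatives. These were median-of-ratios scaling, only the groups compared, and omission of Ctrl-IgG replicate 1 (0.78, adjusted p = 0.0609) or replicate 3 (0.79, adjusted p = 0.0505). Socs4 lost its call with values rescaled to TPM (adjusted p = 0.0850) or only the groups compared (0.0635). Lrig1, the best known Egfr inhibitor of its family, and the ubiquitin ligases Cbl and Cblb were not called, at 0.21, -0.01 and 0.04.

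Adaptors, which carry the signal from the receptors, gave 1 rise of 8 in BF10 against Ctrl-IgG, where 24.9% of all tested genes were called. The rise was that of the PI3 kinase subunit Pik3ca (1.06, adjusted p = 0.0121). Pik3ca lost that call in 3 of 22 alternatives, with median-of-ratios scaling (adjusted p = 0.0624), quantile normalization (0.0512) or only the groups compared (0.0585). By limma it was also called in IL-10-Fc against Ctrl-IgG (1.14, adjusted p = 0.00669) and in BF10 against aCSF1R (1.18, adjusted p = 0.00698). In those comparisons its rise was kept under every alternative. Gab1, a docking protein downstream of Egfr, was at 5.63, 4.24 and 6.19 FPKM in Ctrl-IgG and 1.13, 1.11 and 2.41 in IL-10-Fc, where it fell by 1.34 (adjusted p = 0.00433). In BF10, at 1.74, 2.92 and 4.07 FPKM, Gab1 was not called against Ctrl-IgG (-0.73, adjusted p = 0.0833), but it was without the 4 libraries of high mitochondrial share (-0.63, adjusted p = 0.0172). Grb7, an adaptor of Erbb2 whose gene begins 8.68 kb beyond it, was at 2.40, 1.08 and 3.77 FPKM in Ctrl-IgG and 3.89, 7.31 and 6.18 in BF10, with no call (1.04, adjusted p = 0.155).

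Transcripts known to follow MAP kinase activity gave 3 rises and no fall among 12 in BF10 against Ctrl-IgG. The share called among all tested genes there was 24.9% (11.8% higher, 13.2% lower). Dusp6, a phosphatase that switches off ERK, was at 22.26, 19.57 and 22.14 FPKM in Ctrl-IgG, 17.29, 19.61 and 18.20 in aCSF1R, 72.42, 65.07 and 124.23 under IL-10-Fc and 107.96, 123.40 and 106.54 under BF10. It rose by 2.35 in BF10 (SE 0.24, adjusted p = 8.31e-05) and by 1.93 in IL-10-Fc (SE 0.24, adjusted p = 0.000189), and the sides did not overlap. Ccnd1, the cyclin of the G1 phase, was at 105.47, 39.69 and 96.34 FPKM in Ctrl-IgG and 237.18, 535.95 and 448.87 in BF10, a rise of 2.36 (adjusted p = 0.0124) that lost its call without BF10 replicate 2 (2.13, adjusted p = 0.0551). The third was Dusp5, which rose by 1.22 (adjusted p = 0.0148) and lost its call without Ctrl-IgG replicate 2 (1.01, adjusted p = 0.0535) or with values rescaled to TPM. The immediate early genes Fos, Egr1 and Fosl1 did not pass the test, at 0.27, 1.23 and -0.78, nor did Myc at 0.56. Without the 4 libraries of high mitochondrial share 6 of the 12 were called higher and 1 lower, where 40.4% of all tested genes were called. Egr1 was then called at 1.07 (adjusted p = 0.0243) and Fosl1 at -0.69 (adjusted p = 0.0200). Over all 12 libraries, 2 of these transcripts rose and 0 fell in IL-10-Fc against Ctrl-IgG, where 33.7% of all tested genes were called. In BF10 against aCSF1R 5 rose and 0 fell, where 25% were called. By limma, Ccnd1 (1.28, adjusted p = 0.110) and Dusp5 (0.85, adjusted p = 0.0544) were not called in IL-10-Fc against Ctrl-IgG. Etv4 was called there (0.72, adjusted p = 0.0281) and lost the call in 4 of 22 alternatives.

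In BF10 against Ctrl-IgG without the 4 libraries of high mitochondrial share, 14 of the 40 genes were called higher and 4 lower. Of all tested genes, 40.4% were called there. IL-10-Fc is left without replicates in that fit, so its calls among these genes are not counted and its median log2 fold change against Ctrl-IgG is given. That median was 0.18 for the 40 genes and -0.18 for all tested genes. Errfi1, Spry1, Socs5 and Dusp6 kept their rise and Lrig3 its fall under every alternative tried in these comparisons.

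**Figure D4:**
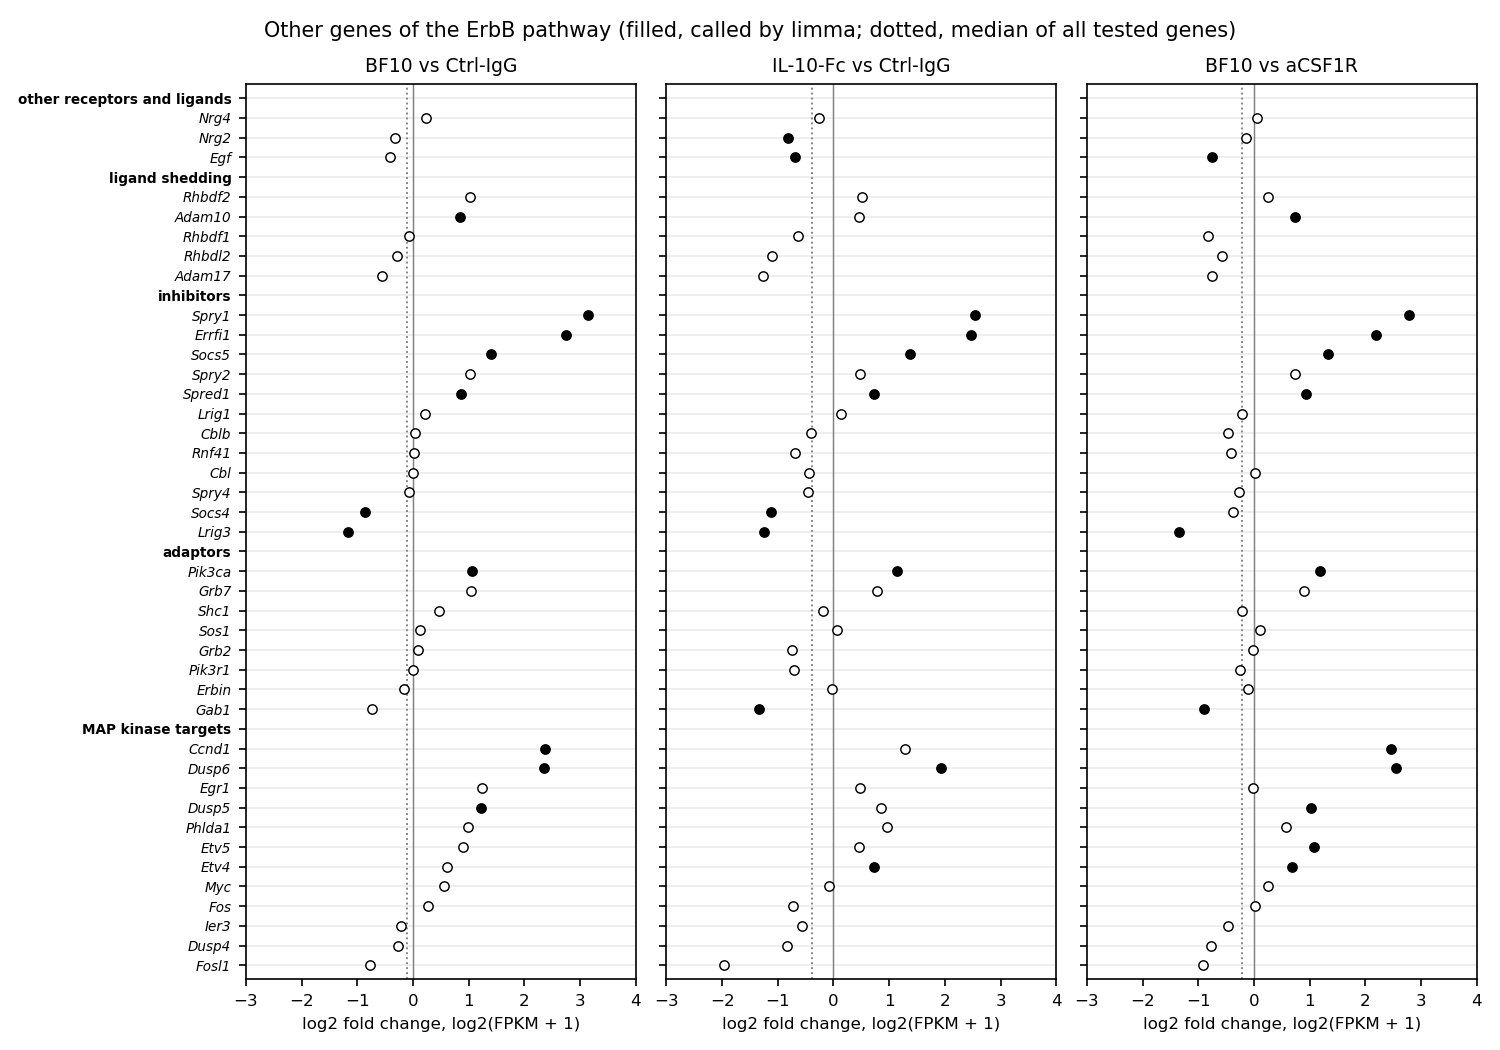
Difference in mean log2(FPKM + 1) for 40 other genes of the ErbB pathway, grouped by role, in the 3 comparisons that cross the sides (filled, called by limma; dotted line, median of all tested genes). Spry1, Errfi1 and Dusp6 lie furthest to the right in IL-10-Fc against Ctrl-IgG, while most adaptors and Adam17 are unfilled.

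Genes whose level was most like that of a member were sought over the 12 libraries, as Pearson's r of log2(FPKM + 1). For Hbegf they were Grhl2 (r = 0.997), Lsr (0.994) and Endod1 (0.993), and for Tgfa they were Ccdc149 (0.998), Ano1 (0.997) and Cgnl1 (0.997). Erbb2 was closest to Tmem198b (0.994), Mov10 (0.992) and Naa80 (0.992), and Erbb3 to Stac2, Cpeb3 and Gipc3 (0.992, 0.992 and 0.991). The nearest genes were Wdr20 (0.978), Arhgap6 (0.974) and AI467606 (0.974) for Areg, and Slc38a2 (0.977), Hsd17b12 (0.977) and Rabl3 (0.975) for Ereg. Egfr was closest to Gcnt4, Ptpdc1 and Clcn4 (0.963, 0.960 and 0.955) and Nrg1 to Gnb1l, AC115752.1 and Fasn (0.929, 0.888 and 0.884). All 12 points share the sides and the mitochondrial share of the libraries. As deviations from the group means, r was 0.989 for Hbegf with Grhl2, 0.995 for Tgfa with Ccdc149 and 0.758 for Areg with Wdr20.

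Between members, r over the same 12 libraries was 0.982 for Hbegf with Tgfa, 0.95 for Areg with Hbegf and -0.843 for Areg with Ereg. As deviations from the group means, Hbegf with Tgfa remained at 0.882 and Egfr with Erbb2 at 0.839, whereas Areg with Ereg was at 0.416. Hbegf, Tgfa, Egfr and Erbb2 were lower in the libraries of high mitochondrial share, as given above, and its part in these correlations was not tested.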

How the data were processed

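RNA of 12 tumours was profiled by the authors with stranded TruSeq mRNA libraries on an Illumina NextSeq and aligned to mm10 (GRCm38). The submitters' processing notes name STAR 2.7.5a, RSEM 1.3.3 and DESeq2 1.30.0 without roles. The authors deposited FPKM values for 55401 genes, rounded to 2 decimals and not scaled further between libraries. They also deposited 4 tables of their own DESeq2 comparisons (mean normalized counts, fold changes and p-values), which were not used. Depth beyond the relative steps of low values is unknown.

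Groups were the treatments in the labels, and replicate numbers follow sample order. The members and the gene lists were chosen with earlier results of these data known. The functions lmFit, contrasts.fit and eBayes (with trend) of limma 3.58.1 in R 4.3.3 fitted log2(FPKM + 1) of all 12 libraries without covariates, over the 15813 genes that reached 1 FPKM in 3 or more libraries, a scale that understates changes of low genes. p-values are two-sided and were adjusted by Benjamini-Hochberg over all tested genes. The fit was also run on simulated data with the same spread for every gene and independent noise. That setting lacks the sides and the mitochondrial shares of these libraries, so it checks only the working of the fit. Positions and exon lengths came from GENCODE M21 (99.5% of identifiers matched) and promoter windows from RefSeq on GRCm38.p6. No pair of libraries was identical (0 pairs). Named genes were the members, the pathway and marker lists, Xist, Eif2s3y and H2-Ea, and the 3 genes most like each member, leaving out predicted genes, pseudogenes and receptor segments of lymphocytes. Alternatives were other pseudocounts, filters and scalings, covariates, a fit of the compared groups only, and leaving out libraries.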

Additional observations from a re-analysis of the deposited data

How the results depend on the processing

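The 5 member calls in BF10 against Ctrl-IgG, IL-10-Fc against Ctrl-IgG and BF10 against aCSF1R kept their direction under every alternative, and the 860 member values under the alternatives gave 0 new calls. When genes with a mean under 5 FPKM were left out, the count was 3 in each of the 3 comparisons, because Ereg and Erbb3 were not among the 4 members fitted there. Leaving out each replicate in turn gave 4 to 5 members called in BF10 against Ctrl-IgG and 5 in the other 2 of these comparisons. The call of Erbb3 in BF10 against Ctrl-IgG was lost in 7 of 21 alternatives, which were the 4 omissions given above, all genes above 0 in a library (adjusted p = 0.0572), values rescaled to TPM (0.0739) and only the groups compared (0.0893). The cause was not tested. Among the other pathway genes, Myc in IL-10-Fc against Ctrl-IgG went from -0.08, not called, to a called 0.68 with the FPKM sum as covariate. Its estimate was 0.99 without the libraries of high mitochondrial share, which leaves IL-10-Fc without replicates. Over all genes, 3941, 5326 and 3955 were called in BF10 and IL-10-Fc against Ctrl-IgG and BF10 against aCSF1R. With the FPKM sum as covariate both BF10 counts were larger, at 6901 and 6740, and without genes under a mean of 5 FPKM the 3 counts were 2135, 3450 and 2121. For IL-10-Fc the count was 2734 with only the groups compared and 8042 without its replicate 3. BF10 against Ctrl-IgG gave 2603 without BF10 replicate 2, and BF10 against aCSF1R gave 2494 without aCSF1R replicate 1 and 2619 without BF10 replicate 2. BF10 against IL-10-Fc, with 2 genes called, gave 115 without BF10 replicate 1, none of them a member. Of 4360 values of the other pathway genes under the alternatives, 104 gained and 89 lost a call. No paired analysis was possible because the labels give no replicate numbers that tie libraries of different groups. Sample titles carry a number whose meaning they do not give. It was 6 in replicate 3 of aCSF1R and of IL-10-Fc and replicate 2 of BF10, and no other number was shared between groups. Within groups, replicates 1 and 2 shared a number in Ctrl-IgG, in aCSF1R and in IL-10-Fc. Whether such replicates are independent of one another cannot be told from the labels. Within IL-10-Fc and BF10 the libraries of high mitochondrial share are those numbered 2 and 4 and the others 6 and 7, so the number and the share cannot be told apart there. With titles numbered 1 to 4 against 5 to 7 as covariate, 5 members were called in each comparison across the sides and 0 within them. FPKM without counts limits what can be said of Tgfa, Btc and Epgn, whose control values lie near 0.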
